A study of Mus musculus with 32 samples.

Results

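Chromatin and DNA methylation regulators were taken as the genes whose symbol on the array began with Hdac, Sirt, Kdm, Dnmt, Tet, Setd, Kmt2, Ezh, Cbx or Smarc, leaving out Kdm5c, Kdm5d and Kdm6a. The rule gave 78 genes of 18194, in 14 families. It used no measured difference between groups, but each gene was read through 1 probe set, the one of highest mean over the arrays. The 78 genes have 179 probe sets, and 50 of them have more than 1. Their work on chromatin covers methylation of cytosine (Dnmt) and its oxidation (Tet), methylation of histones (Ezh, Kmt2, Setd), its removal (Kdm), binding to it (Cbx), removal of acetyl groups (Hdac, Sirt) and movement of nucleosomes (Smarc).

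The data are from mouse liver on Affymetrix Mouse Genome 430 2.0 arrays, 32 in number, with 2 in each of 16 groups. Adult liver came from female CD-1 mice 10 weeks old: unoperated (time 0), or after a 2/3 hepatectomy with removal of the gallbladder, at 1, 2 and 6 h, at 12 and 18 h, at 24 and 30 h, or at 48 and 72 h, under ketamine and xylazine and with buprenorphine afterwards. Embryonic liver came from CD-1 embryos of 6 ages, daily from 10.5 to 14.5 days after conception and then at 16.5 days. RNA of 3 or more tissues was pooled for every array, so single animals cannot be compared. The labels call the arrays of a group separate samples and say no more, so whether they came from separate pools is not known. The p-values measure the spread between arrays of a group. No sham operation is among the groups, so the anaesthetic, the surgery and the loss of tissue cannot be told apart. Stages of the embryos were read from the titles and source names, because the age field gives 10.5 days for all of them and the description speaks of adult liver.

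A level is the deposited intensity. A change is a difference of log2(level + 16), which understates the change of low genes. It was tested with limma on all 32 arrays, called at a Benjamini-Hochberg adjusted p under 0.05 over all 18194 genes, and a ± after it is its standard error. "Raised", "rose", "lowered" and "fell" are used of called changes. All comparisons with time 0 share its 2 arrays, and both comparisons of the embryo share its 12.

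Dividing cells must copy their chromatin as well as their DNA. Dnmt1 restores methylation on the new DNA strand, while Dnmt3a and Dnmt3b place it on unmethylated DNA. Polycomb complex 2 methylates lysine 27 of histone H3 through Ezh2, or through Ezh1, the form known from tissues that divide little. Smarca2 (BRM) and Smarca4 (BRG1) are alternative motors of the SWI/SNF remodelling complex, and Smarca1 and Smarca5 are those of the ISWI complexes. After hepatectomy hepatocytes that rarely divide re-enter the cell cycle, and the embryonic liver grows fast while it is also the site of blood formation.

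Promoter sequences are shown for 3 members whose levels are described next: Dnmt1, among the largest embryonic rises, and Ezh2 and Sirt1, raised both in the embryo and at 72 h. Smarca5 and Cbx1 were also raised in both, have none of the words searched below and are not shown. For Sirt1 the call in limma at 72 h was at the edge of the threshold (adjusted p = 0.0484). The sequences come from the RefSeq promoter table of build GRCm38.p6, which matched 65 of the 78 members. They lie within the 250 bases before a listed start, on the strand of the gene. In the first, at chr9:20952815-20952862 (minus strand), capitals mark the reverse complement of TTTCGCGC, a word bound by E2F factors. CCAAT and its reverse complement also stand in that stretch, unmarked. Another listed start of Dnmt1 had CCAAT and TTTGAA but no such E2F word. In the second, at chr6:47595031-47595140 (minus strand), they mark CCAAT or its reverse complement ATTGG, the word of the factor NF-Y. In the third, at chr10:63339053-63339170 (minus strand), they mark the E-box CACGTG.
Dnmt1: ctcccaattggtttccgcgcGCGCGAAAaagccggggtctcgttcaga
Ezh2: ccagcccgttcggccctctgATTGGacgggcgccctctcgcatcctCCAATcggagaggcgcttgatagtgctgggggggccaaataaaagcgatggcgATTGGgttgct
Sirt1: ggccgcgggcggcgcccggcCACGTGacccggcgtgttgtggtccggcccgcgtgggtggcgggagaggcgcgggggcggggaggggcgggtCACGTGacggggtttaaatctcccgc

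The words were searched on both strands of those 250 bases, with any listed start counted for a gene. An E2F word (TTTCCCGC, TTTGGCGC or TTTCGCGC) stood in 4 of the 65 members (6.15%), namely Dnmt1, Cbx3, Smarcd1 and Sirt4, and in 1.78% of the 27025 genes of the table. Members raised in the embryo against time 0 had one in 2 of 33 (6.06%), those lowered in 1 of 12 (8.33%) and those not called in 1 of 20 (5%). CCAAT stood in 41.5% of the members and 37.5% of all genes, TTTGAA, the core of the cell cycle element CHR, in 16.9% and 18.3%, and CACGTG in 10.8% and 6.86%. None of these words is contained in another. The members' upstream stretches held a median of 20 CpG dinucleotides, against 6 over the table, and 62.8% against 52% of G and C. Of the 5 members raised at 72 h, Ezh2 alone had CCAAT and Sirt1 alone CACGTG, and 0 had an E2F word. A match describes letters in a window and is not a measured site.

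The largest differences lay between embryo and adult. Of the 78 members 42 were raised and 15 lowered in the embryo (average of its 6 stages) relative to time 0, together 73.1%, where 55.7% of all genes were called (30.9% raised and 24.8% lowered). Their median change was 0.47, against 0.02 over all genes. Against 72 h 42 were raised and 9 lowered, with a median of 0.50, where 54.1% of all genes were called (28.6% raised and 25.5% lowered) and the median was 0.00. All 12 embryonic arrays lay above both of time 0 on 38 members and below them on 11 (24.5% and 19.1% of all genes), and relative to 72 h on 36 and 9 (23.2% and 20.7%). On 31 members all 12 embryonic arrays lay above all 20 adult ones (39.7%, against 15.2% of all genes), and on 4, Ezh1, Ezhip, Kdm5b and Sirt3, they lay below (5.13%, against 7.58%). Of the 37 members called against time 0 that have several probe sets, 20 had the same direction on all of them. The log2 ratio of 3' to 5' control probe sets (3'/5') of Actb was 0.33 to 0.90 on embryonic arrays. It was 0.78 and 1.02 at time 0 and 0.57 to 2.42 over the adult arrays. That of Gapdh was -0.43 to 1.49 in the embryo and -0.44 to 1.22 in the adult. The part of RNA quality in the differences was not tested. Markers of cycling cells and of other cell types differed between embryo and adult as well. The summed level of 10 markers of cycling cells (Mki67, Top2a, Cdk1 and others, all 10 raised) ran from 10866 to 17957 on embryonic arrays, from 3387 to 4104 at 72 h and from 152 to 2271 on the other adult arrays. The 9 measured erythroid markers summed to 2127 to 22523 in the embryo and to 557 to 929 in the adult, the 4 hepatoblast markers to 14156 to 17167 against 786 to 1134, and the 8 markers of mature hepatocytes to 4461 to 17809 against 30951 to 59003. None of these markers was at or below 0 on every array. Their part in the differences below was not tested, and in such bulk tissue a change in the share of a cell type and a change of RNA per cell cannot be told apart.

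**Figure D1:**
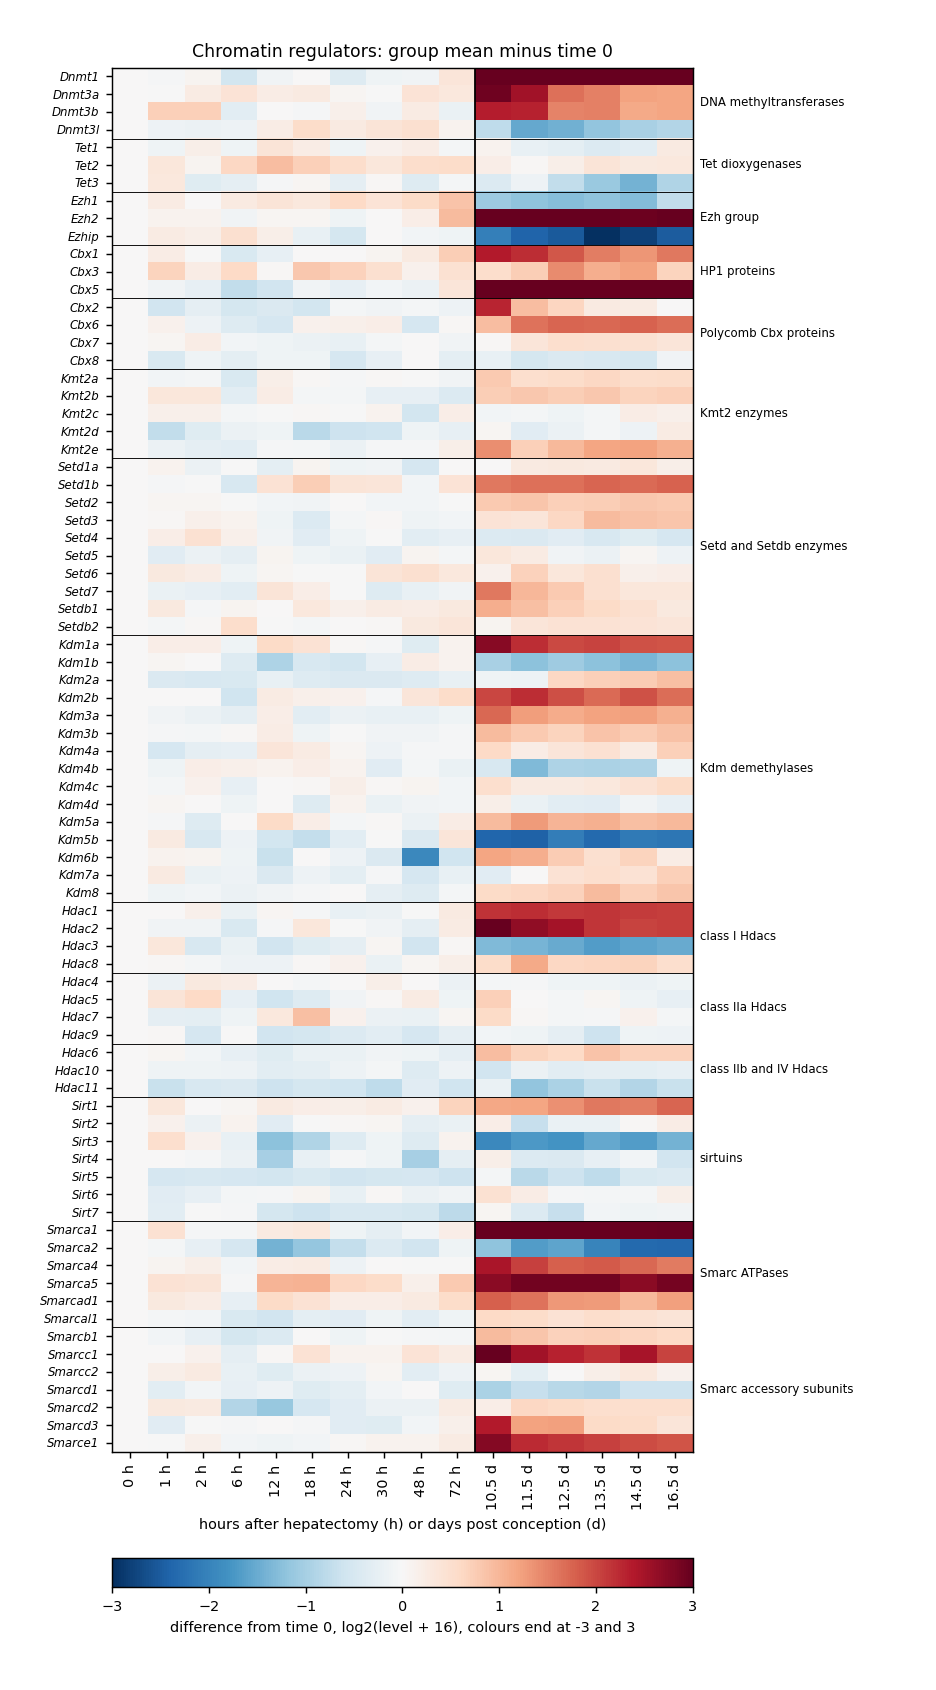
Difference of each group's mean from time 0 on the log2(level + 16) scale for the 78 members (rows, by family) over 10 adult times and 6 embryonic stages (columns; the vertical line divides them). Colours end at -3 and 3; the embryonic columns carry most of the deep colours, as for Dnmt1 (3.49 over the stages) and Ezhip (-2.57).

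Dnmt1, the maintenance methyltransferase, was low in every adult group and high at every stage. Its level was 84.3 and 68.7 at time 0, 105.04 and 98.9 at 72 h, and between 869 and 1162 (median 1052) on the 12 embryonic arrays. No embryonic array came near an adult one, and the change against time 0 was 3.49 ± 0.11 (11.3-fold, adjusted p = 1.71e-16). Its other 2 probe sets gave 3.83 and 3.56. Among adult groups 72 h was highest, where the change (0.36 ± 0.14) was not called in limma (adjusted p = 0.244). On the other 2 probe sets the change at 72 h was larger, 0.82 and 0.63. At 6 h Dnmt1 was 39.4 and 56.0 and had fallen by 0.55 ± 0.14 (adjusted p = 0.0462). Uhrf1, which brings Dnmt1 to newly copied DNA and was chosen for comparison among the partners of DNA methylation, did rise at 72 h. It read 12.7 and 1.26 at time 0 and 76.1 and 72.0 at 72 h (2.02 ± 0.29, adjusted p = 0.000229), and rose by 5.59 ± 0.22 in the embryo.

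The methyltransferases that place new methylation were also embryonic, but on a falling course. Dnmt3a was 61.4 and 53.0 at time 0, 488 and 593 at 10.5 days, 357 and 449 at 11.5 days, 198 and 233 at 12.5 days, and 146 and 153 at 16.5 days. All embryonic arrays lay above all adult ones, whose highest was 93.6. The change against time 0 was 1.83 ± 0.12 (adjusted p = 4.71e-11), and the trend over the stages was -0.30 ± 0.02 per day (adjusted p = 2.74e-09). Dnmt3b was 59.8 and 36.1 at time 0, 273 and 342 at 10.5 days and 136 and 120 at 16.5 days, with a change of 1.66 ± 0.15 and a trend of -0.22 ± 0.03 per day (adjusted p = 2.94e-06). The 5 probe sets of Dnmt3a and the 2 of Dnmt3b all gave a positive embryonic change (0.84 to 1.83, and 0.71 and 1.66), though 1 of Dnmt3a, of mean below 0, gave a trend of 0.00. Over the same days Dnmt1 went slightly the other way, by 0.07 ± 0.02 per day (adjusted p = 0.0211). That call ended after quantile normalization (0.05), with the mean of probe sets (0.06), and without the second array of 10.5 days (0.06) or either of 16.5 days (0.07 and 0.06). Dnmt3l, a cofactor without catalytic activity, was lowered in the embryo (-1.13 ± 0.22): adult arrays ran from 244 to 449, embryonic ones from 76.0 to 169 apart from the first of 10.5 days at 275. It has 1 probe set, with a name ending in _s_at, which marks probes that may read more than 1 transcript. Those used for Cbx7, Hdac2, Hdac3, Kdm1a, Kdm2b, Sirt5 and Tet1 have such names too. The one used for Cbx1 has a name ending in _x_at, and both kinds were left out in the setting without ambiguous probe sets.

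The Tet dioxygenases, which oxidise methylcytosine, showed no embryonic rise on the probe sets used. Tet1 lay between 416 and 812 in the adult and 346 and 877 in the embryo (-0.14 ± 0.22, adjusted p = 0.613). Its probe set has a name ending in _s_at, and the others gave -0.23, 0.40 and, on the dimmest, 1.19. Tet2 ran from 114 to 174 in the embryo against 133 and 112 at time 0 (0.24 ± 0.14, adjusted p = 0.143). Tet3 was 219 and 257 at time 0, 205 and 216 at 11.5 days and 90.7 and 67.4 at 14.5 days. It was lowered in the embryo by 0.79 ± 0.18 (adjusted p = 0.000658) and fell by 0.14 ± 0.03 per day over the stages.

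Ezh2, the Polycomb methyltransferase of dividing cells, was called both in the embryo and at 72 h. It was 71.6 and 69.2 at time 0, 144 and 159 at 72 h, and between 639 and 846 (median 706) on the embryonic arrays. The arrays of 72 h were the highest of the 20 adult ones, and the second array of 48 h, at 111, came next. The rise at 72 h was 0.95 ± 0.18 (1.93-fold, adjusted p = 0.00383), and the embryonic change was 3.11 ± 0.14 against time 0 (adjusted p = 8.11e-14) and 2.16 ± 0.14 against 72 h. Among the 9 partners of complex 2, a list chosen with results of these data known, 7 were raised and 0 lowered in the embryo (Suz12 2.77 ± 0.24, Mtf2 2.34 ± 0.17). Of all genes 30.9% were raised there and 24.8% lowered. At 72 h 1 of the partners rose, the histone binder Rbbp7 (0.72 ± 0.18), where 2.83% of all genes were raised. Ezh1 stood on the other side in the embryo, at 173 and 169 at time 0, 361 and 291 at 72 h and 54.9 to 100 on the embryonic arrays (-1.14 ± 0.18, and 3.99-fold lower than at 72 h). Its other 3 probe sets gave 0.06, -0.30 and 0.06 against time 0, so the direction rests on 1 probe set. Ezhip, an inhibitor of complex 2 with 1 probe set, was 385 and 388 at time 0 and 27.0 to 123 in the embryo (-2.57 ± 0.22, adjusted p = 1.39e-09).

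Among the readers of histone methylation, the HP1 proteins bind methylated lysine 9 of histone H3 and those of the Polycomb group bind lysine 27. HP1 members Cbx5, Cbx1 and Cbx3 were called as raised in the embryo. Cbx5 (HP1 alpha) was 94.1 and 74.3 at time 0, 117 and 105.4 at 72 h, and 929 to 1130 (median 1037) in the embryo, a change of 3.39 ± 0.12 (10.5-fold, adjusted p = 1.81e-15). Of its other 4 probe sets 3 gave 0.25, 1.41 and 1.43 and the last, of mean 52.9, gave -0.89. Cbx1 (HP1 beta) was 301 and 280 at time 0, 468 and 515 at 72 h and 715 to 1664 in the embryo. It rose by 1.82 ± 0.13 in the embryo, by 0.73 ± 0.17 at 72 h (adjusted p = 0.0208), and fell by 0.16 ± 0.03 per day over the stages. Cbx3 (0.94) lost its call when the first array of time 0 was left out (0.67), was not called against 72 h, and was near background (1.41 to 31.7 adult, 15.3 to 55.0 embryonic), because its brighter probe sets are listed with several genes and were not used. In the Polycomb group Cbx6 rose 1.58 ± 0.12 and Cbx2 0.73 ± 0.14, the latter with a second probe set at -0.23, while Cbx7 (0.37 ± 0.16, adjusted p = 0.0578) and Cbx8 (-0.38 ± 0.27) were not called in limma against time 0. Cbx7 was called against 72 h (0.49 ± 0.16) on a probe set with a name ending in _s_at. That call ended without either array of 72 h (0.47 and 0.50), with the mean of probe sets (0.16) and on the next probe set (0.03).

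The class I deacetylases, the catalytic subunits of several corepressor complexes, did not move together. Hdac1 was 272 and 209 at time 0, 297 and 284 at 72 h and 988 to 1268 (median 1089) in the embryo, a change of 2.14 ± 0.12 (adjusted p = 2.19e-12). Hdac2 was 156 and 120 at time 0, 165.2 and 167 at 72 h and 583 to 1337 in the embryo (2.42 ± 0.13), and fell by 0.17 ± 0.03 per day from 10.5 to 16.5 days. Both were above every adult array at every stage. Hdac3, the subunit of the NCoR complex, had the opposite sign. It was 404 and 733 at time 0 and 152 to 207 (median 184) in the embryo (-1.50 ± 0.27, adjusted p = 7.99e-05), from 1 probe set with a name ending in _s_at. Its second array of 48 h, at 195, fell within the embryonic range. Hdac8 was dim (10.9 to 22.9 adult, 23.7 to 57.4 embryonic) and rose by 0.69 ± 0.15. Of the class IIa enzymes Hdac4, Hdac5, Hdac7 and Hdac9, which shuttle between nucleus and cytoplasm, limma called 0 of 4 against time 0, with changes from -0.23 to 0.10. None of them had an unadjusted p under 0.05 there.

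Among the sirtuins, deacetylases that consume NAD, Sirt1 and Sirt3 lay on opposite sides. The nuclear Sirt1 was 74.6 and 86.6 at time 0, 152 and 124 at 72 h and 191 to 315 in the embryo, above every adult array. It rose by 1.44 ± 0.14 in the embryo (adjusted p = 1.55e-08) and by 0.11 ± 0.03 per day over the stages. Its rise at 72 h (0.67 ± 0.18) was at the edge of the threshold (adjusted p = 0.0484). The mitochondrial Sirt3 was 411 and 435 at time 0, 448 and 468 at 72 h and 96.5 to 151 in the embryo (-1.67 ± 0.18, adjusted p = 4.87e-08). Sirt5 was also lowered (-0.52 ± 0.19), and Sirt2, Sirt4, Sirt6 and Sirt7 were not called in limma (-0.26 to 0.12). The call of Sirt5 ended without the first array of time 0 (-0.31).

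The alternative SWI/SNF motors changed in opposite directions, and both ISWI motors rose. Smarca4 was 217 and 144.5 at time 0, 178 and 176 at 72 h and 549 to 1086 in the embryo (1.90 ± 0.16, adjusted p = 9.1e-10). Smarca2 was 398 and 425 at time 0, 417 and 334 at 72 h and 66.5 to 194 in the embryo (-1.86 ± 0.17, adjusted p = 7.99e-09). It fell further as the stages passed, by 0.19 ± 0.03 per day, from 146 and 194 at 10.5 days to 66.5 and 69.3 at 16.5 days. The second probe sets gave 1.06 for Smarca4 and -0.59 for Smarca2, the same signs. Smarca1 was at background in the adult (-3.51 to 11.6) and 127 to 323 in the embryo (3.42 ± 0.14), so its fold depends on the constant added. Smarca5 was 112 and 103 at time 0 and 730 to 956 (median 870) in the embryo (2.83 ± 0.15). On 3 of its 4 probe sets the change was 2.12 to 2.83, and on the last 0.08.

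Core subunits of SWI/SNF rose with Smarca4. Smarcc1 (BAF155) went from 107 and 81.5 to between 417 and 1309 (2.45 ± 0.16) and Smarce1 (BAF57) from 208 and 137 to between 652 and 1244 (2.17 ± 0.12). The other probe sets of Smarce1 gave 2.16 and, at a mean of 157, -0.88. Smarcc2 (BAF170), the paralogue of Smarcc1, was not called in limma (0.06 ± 0.11, adjusted p = 0.637), at 184 to 303 in the embryo and 164 to 292 in the adult. Smarcb1 rose by 0.74 ± 0.10 on its brightest probe set and 1.20 on the next, against -1.86 on another of mean 163, and the mean of probe sets (0.03) ended its call. The embryonic fall of Smarcd1 (-0.76 ± 0.19) rests on a dim probe set, and its other one gave 2.38. Of the 17 partners of SWI/SNF in a list chosen with results of these data known, 12 were raised and 1 lowered. Of all genes 30.9% were raised and 24.8% lowered. Among the raised partners were Phf10 (2.63 ± 0.16) and Arid1a (1.33 ± 0.10).

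Demethylases and the remaining methyltransferases changed in both directions. Kdm1a (LSD1), which removes methyl groups from lysine 4 of histone H3, was 123 and 91.6 at time 0 and 435 to 827 in the embryo (2.13 ± 0.13, adjusted p = 1.58e-11). Its relative Kdm1b (LSD2) went the other way, from 195 and 142 to 47.2 to 88.1 (-1.18 ± 0.18, adjusted p = 7.82e-06). Of 15 Kdm genes 9 rose, among them Kdm2b (1.91 ± 0.12) and Kdm3a (1.26 ± 0.11), and Kdm5b, Kdm1b and Kdm4b fell. The shares of all genes, here and for the Kmt2, Setd and Setdb genes below, were 30.9% raised and 24.8% lowered. For Kdm5b the fall of 2.25 ± 0.15 (from 399 and 393 to 50.9 to 99.3) was seen on its brightest probe set, and the other 3 gave 0.77, -0.11 and -0.52. The call of Kdm4b (-0.79 ± 0.29) ended without the second array of time 0 (-0.34). Of the Kmt2 genes 3 of 5 rose and of the Setd and Setdb genes 6 of 10, led by Setd1b (1.68 ± 0.21, other probe set -0.09) and Kmt2e (1.09 ± 0.15). Setd4 fell by 0.42 ± 0.13, a call that ended without the first array of time 0 (-0.21) and with the mean of probe sets (-0.22).

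**Figure D2:**
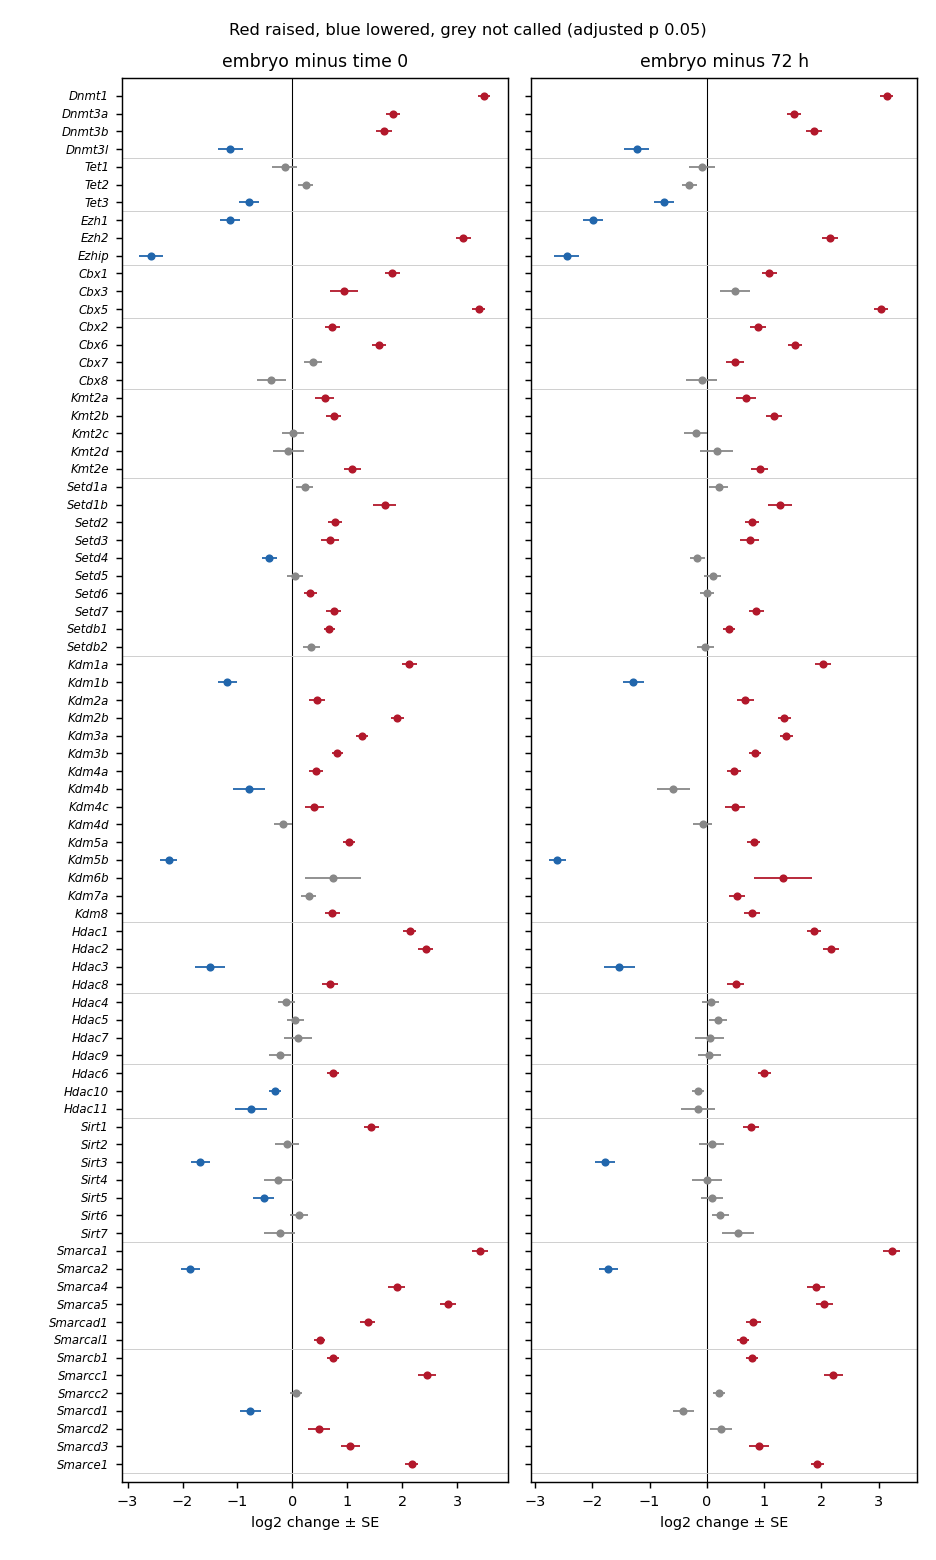
Change of each member (rows, by family) in the embryo, averaged over its 6 stages, against time 0 (left) and against 72 h (right), as log2 change with its standard error from limma, red where raised, blue where lowered and grey where not called. Dnmt1, Cbx5, Smarca1 and Ezh2 lie farthest to the right against time 0 (3.49, 3.39, 3.42 and 3.11), and Ezhip and Kdm5b farthest to the left (-2.57 and -2.25).

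Other chromatin genes, taken from 9 lists chosen with results of these data known, were tested the same way. Against time 0, 77 were raised, 7 lowered and 31 not called, where 30.9% of all genes were raised and 24.8% lowered, with a median of 0.85 (all genes 0.02). The DNA methylation reader Mbd2 rose by 1.82 ± 0.15, the H3 lysine 9 corepressor Trim28 by 2.60 ± 0.14 and the histone acetyltransferase Hat1 by 2.87 ± 0.15. The histone chaperone Asf1b rose by 5.03 ± 0.21, the remodeller Hells by 3.94 ± 0.22 and Bcl11a, a subunit of SWI/SNF, by 3.62 ± 0.14.

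Within the embryonic stages 6 members rose with age and 21 fell, together 34.6%, where 27.9% of all genes were called (16.4% rising and 11.5% falling). A moderated F test of differences between stages called 21 members (26.9%, against 21.2% of all genes). The largest falls per day were those of Cbx2, Dnmt3a, Smarcd3 and Dnmt3b. Cbx2 was 607 and 525 at 10.5 days, 229 and 191 at 11.5 days, 118 and 136 at 13.5 days, and 101 and 108 at 16.5 days, within the adult range of 57.5 to 130 (-0.32 ± 0.03 per day, adjusted p = 4.56e-09; other probe set 0.02). Smarcd3 (BAF60C), a SWI/SNF subunit known from the heart, was 327 and 338 at 10.5 days, 116 and 164.96 at 11.5 days and 61.5 and 81.4 at 16.5 days (-0.30 ± 0.03 per day, adjusted p = 3.07e-07). Setd7, a lysine methyltransferase, was 270 and 296 at 10.5 days and 114 and 104 at 16.5 days (-0.20 ± 0.03 per day). The other probe set of Setd7, of mean 18.4, gave 0.09, and the mean of probe sets (-0.06) ended the call.

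Rises with age were fewer. Kdm2a was 93.7 and 76.8 at 10.5 days, 171 and 138 at 12.5 days and 186 and 192 at 16.5 days (0.19 ± 0.03 per day, adjusted p = 1.7e-05). Kdm7a went from 159 and 169 to 343 and 384 (0.16 ± 0.03 per day), and its next 2 probe sets gave 0.44 and 0.46 per day. Kdm2a and Kdm7a both act on histone H3, Kdm2a on lysine 36 and Kdm7a on lysines 9 and 27. The other risers were Sirt1, Cbx6, Setd3 and Dnmt1 (0.07 to 0.11 per day), and the call of Setd3 was lost in 11 alternatives.

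The summed level of markers of neighbouring organs was highest at 10.5 days, and most of it there was Myh6. Myh6, a myosin of heart muscle, read 2165 and 1244 there, 59.3 and 73.7 at 11.5 days and at most 423 later. The 7 markers of neighbouring organs summed to 1811 to 2933 at 10.5 days, to 420 to 912 at the later stages, and to 440 to 738 in the adult. Over the stages 2 of the 7 fell, 0 rose and 5 were not called. Markers of red cells rose over the same days, from 2127 and 2340 at 10.5 days to 22455 and 22523 at 16.5 days, with 9 of 9 called. Neutrophil markers rose in 6 of 6 (554 to 706 at 10.5 days, 7264 to 7753 at 16.5 days), mature hepatocyte markers in 5 of 8 and macrophage markers in 6 of 8, and stellate cell and mesenchyme markers fell in 5 of 8 and rose in 2. The first array of 10.5 days also had a Gapdh 3'/5' ratio of 1.49 on the log2 scale, against -0.32 on the second. The part of these in the trends was not tested. Without both arrays of 10.5 days, a setting chosen after Myh6 had been seen, 8 members rose and 14 fell. The shares of all genes given for the trend (16.4% rising and 11.5% falling) belong to the fit of all arrays. Shares of all genes in this setting were not set beside its counts, so the members cannot be compared with them here. The falls per day of Dnmt3a (-0.24), Dnmt3b (-0.20), Smarcd3 (-0.19), Cbx2 (-0.18), Setd7 (-0.14) and Hdac2 (-0.12) were still called. Those of Kdm1a (-0.06), Smarca4 (-0.08), Smarcc1 (-0.07), Smarce1 (-0.07) and 5 others were not, and the slope of Cbx6 became 0.01. Against time 0 the setting without 10.5 days gave 44 raised and 15 lowered members, also with no share of all genes beside them.

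**Figure D3:**
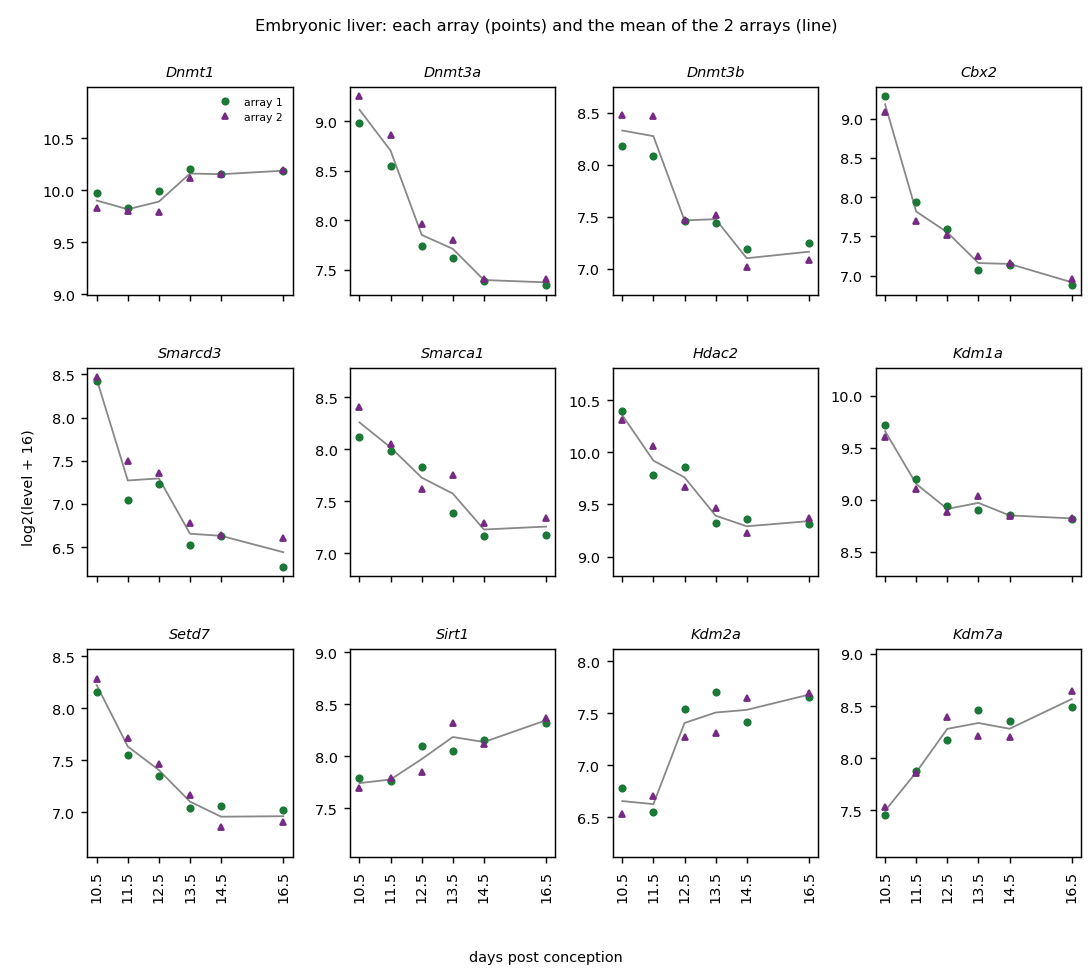
Level of 12 members on each array of the embryonic stages (circles array 1, triangles array 2; line, mean of both) as log2(level + 16) against days post conception; the vertical scale differs between panels and spans at least 2 units. Dnmt3a, Dnmt3b, Cbx2 and Smarcd3 fall from 10.5 to 16.5 days (-0.30, -0.22, -0.32 and -0.30 per day) while Sirt1, Kdm2a and Kdm7a rise.

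After hepatectomy the comparison of 12 and 18 h gave the most calls, among the members as among all genes. It averages 4 arrays, where that of 72 h has 2. In the mean of 12 and 18 h against time 0, 4 members were raised (5.13%) and 7 lowered (8.97%), together 14.1%. Of all genes 10.2% were called (5.27% raised and 4.91% lowered). The median change was -0.04 over the members and 0.01 over all genes. The 4 arrays lay above both of time 0 on 11 members and below them on 13 (12.3% and 11.7% of all genes). Earlier and later hours gave few calls: limma called 0 members at 1 to 6 h (0.978% of all genes) and 0 at 24 and 30 h (1.12%). An unadjusted p under 0.05 was reached by 8 members at 1 to 6 h (10.3%, against 7.71% of all genes). At 24 and 30 h it was reached by 7 members (8.97%, against 10.1%). Other settings called 0 or 1 in each. Any difference among the 10 adult groups was called by limma's F test for 25 members (32.1%, against 18.2% of all genes). The hour farthest from time 0 was 12 h for 11 of them, 6 h for 4, 72 h for 3 and 18 h for 2.

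Smarca2, the SWI/SNF motor that was low in the embryo, had the largest fall. From 398 and 425 at time 0 and 237 and 342 at 6 h it went to 144.8 and 142 at 12 h. It was then 225 and 136 at 18 h, and had reached 305 and 307 at 30 h. All 4 arrays of 12 and 18 h lay below both of time 0, and the change was -1.29 ± 0.20 (2.45-fold lower, adjusted p = 0.000171). Its second probe set gave -0.34. Sirt3 followed the same course, at 411 and 435 at time 0, 177 and 163 at 12 h, then 286 and 164.6 at 18 h, and later 386 and 382 at 30 h (-1.07 ± 0.20, adjusted p = 0.00114). Of the arrays outside these hours only the second of 48 h (240 for Sirt3, 224 for Smarca2) lay within their range.

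Smarcd2, Kdm1b and Kdm5b fell in the same hours. Smarcd2 (BAF60B), a SWI/SNF subunit, was 463 and 320 at time 0, 174 and 238 at 6 h, then 243 and 111 at 12 h, and later 326 and 221 at 18 h. Its arrays at 12 h lay far apart, and the lower one had the higher 3'/5' ratios of Actb (1.39 against 0.57 on the log2 scale) and Gapdh (0.30 against -0.29), whose part was not tested. The fall was 0.82 ± 0.22 (adjusted p = 0.0206), a second probe set of mean 389 gave 0.00, and without that array the fall was not called (-0.56). Kdm1b was 195 and 142 at time 0, 81.9 and 78.3 at 12 h and 128 and 103 at 18 h (-0.70 ± 0.20, adjusted p = 0.029). Kdm5b was 399 and 393 at time 0 and 227 to 282 at 12 and 18 h (-0.63 ± 0.18). Its other 3 probe sets gave 0.18, -0.25 and -0.39, and the mean of probe sets (-0.27) ended the call. Smarcal1, an annealing helicase of stalled replication forks (-0.43 ± 0.12), and Cbx2 (-0.49 ± 0.16, adjusted p = 0.0494) were also lowered. Leaving out 1 array of time 0, 12 h or 18 h ended the call in at least 1 case for each of these 5, but not for Smarca2 or Sirt3.

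Smarca5, an ISWI motor, had the largest rise at 12 and 18 h. It was 112 and 103 at time 0 and 109 and 102 at 6 h, and went to 266 and 208 at 12 h. It was then 242 and 234 at 18 h, and later 159 and 173 at 30 h. The 4 arrays were the highest of the adult series, and the change was 1.03 ± 0.17 (adjusted p = 0.000369). Its other 3 probe sets gave 0.15, 0.40 and -0.09. Tet2 was 133 and 112 at time 0, 238 and 255 at 12 h and 184 and 240 at 18 h (0.82 ± 0.15, adjusted p = 0.00112). Its dimmer second probe set gave -0.48, and the mean of probe sets (0.17) ended the call. Kdm1a rose by 0.51 ± 0.15 (123 and 91.6 at time 0, 155 and 179 at 12 h) and Smarcad1, a remodeller, by 0.51 ± 0.15 (136 and 111, then 181 and 203). The other probe set of Kdm1a gave 0.30, and its call ended without ambiguous probe sets. The second probe set of Smarcad1 gave -0.34, and the mean of probe sets (0.08) ended its call. Leaving out the second array of time 0 ended the calls of both Kdm1a and Smarcad1 (0.32 and 0.38), and leaving out the second of 12 h did so too (0.46 and 0.47).

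Among the other chromatin genes 8 rose, 6 fell and 101 were not called at 12 and 18 h, where 5.27% of all genes were raised and 4.91% lowered, so that these shares lie near those of all genes. The ISWI partner Baz1a rose by 1.04 ± 0.15 (adjusted p = 0.000101), Bptf, of the ISWI complex NURF, by 1.87 ± 0.56, the corepressor subunit Tbl1xr1 by 1.12 ± 0.16 and the histone chaperone Nap1l1 by 0.95 ± 0.16. Tbl1x, a relative of Tbl1xr1, fell by 0.75 ± 0.13, the SWI/SNF subunit Bcl7c by 2.41 ± 0.61 and the stress gene Gadd45a by 1.33 ± 0.25. Of the 10 cycling cell markers limma called 0 in these hours, with a median change of 0.04. Stellate cell and mesenchyme markers were lowered in 4 of 8 (median -0.74), and whether this bears on the members was not tested.

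A fit of only the 6 arrays compared called 0 members at 12 and 18 h and 157 of all genes, and with array weights 6 members were called. Without the first array of time 0 the count was 5, and it was 7, 7 and 6 without the second of time 0, 12 h or 18 h.

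At 6 h, 3 members were lowered, 3.85% against 1.06% of all genes (2.12% called). They were Cbx5 (50.1 and 38.2, against 94.1 and 74.3 at time 0, -0.74 ± 0.16, adjusted p = 0.013), Dnmt1, and Smarcb1 (-0.52 ± 0.14, adjusted p = 0.0456), a core subunit of SWI/SNF. Cbx5 was still low at 12 h (44.2 and 58.4, -0.57) and back at 84.3 and 70.1 at 18 h. For these early hours other probe sets were read only over the mean of 1 to 6 h. There those of Cbx5 gave 0.85, -0.01, -0.28 and -0.05, and those of Dnmt1 and Smarcb1 were all negative. Alternative settings were compared for the main comparisons and not for 6 h alone.

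At 72 h 5 members were raised and 0 lowered, 6.41%, where 3.14% of all genes were called (2.83% raised and 0.319% lowered). Both arrays lay above both of time 0 on 20 members and below them on 18 (26.7% and 15.3% of all genes). The members' median change was -0.04 and that of all genes 0.04. Called were Ezh2, Ezh1, Smarca5, Cbx1 and Sirt1, each with both arrays above both of time 0. Smarca5 was 193 and 202 (0.79 ± 0.20, adjusted p = 0.0279), below its level at 12 and 18 h. Its other probe sets gave 0.32, 0.50 and -0.08, and the mean of probe sets (0.38) ended the call. For Ezh1 (0.86 ± 0.23, adjusted p = 0.0432) the other probe sets gave 0.06 to 0.20. For Cbx1 the other probe sets gave 0.52, 0.70, 0.29 and, near background, -0.05.

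Among the other chromatin genes 8 were raised, 0 lowered and 107 not called at 72 h, where 2.83% of all genes were raised and 0.319% lowered. Beside Uhrf1 they included Asf1b (2.17 ± 0.28, adjusted p = 5.65e-05), Hells (1.58 ± 0.29), Hat1 (1.00 ± 0.20), Mbd1 (1.26 ± 0.20) and the Polycomb ligase Rnf2 (0.60 ± 0.14). All 10 markers of cycling cells rose there (median 3.59). Macrophage and Kupffer cell markers rose in 3 of 8 (summed level 4764 to 4979, against 3154 to 3203 at time 0) and neutrophil markers in 2 of 6 (1659 to 1846, against 623 to 660). The part of these markers in the members' changes was not tested. The summed level of the cycling cell markers was 415 and 2271 on the arrays of 48 h, which thus differed from each other. On the second of them Ezh2 was 111, against 61.5 on the first, and the 3'/5' ratios were higher (Actb 2.42 against 1.01, Gapdh 1.22 against -0.39, log2 scale).

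The calls at 72 h depended on single arrays. A fit of only the 4 arrays compared called 0 members and 66 of all genes. Without the second array of 72 h 0 were called, without the first 1, and without the first or second of time 0 2 and 1. Leaving out any of 16 arrays outside the comparison (1, 2 and 30 h, and 11.5 to 16.5 days) gave 3. Ezh2 kept its call in each alternative except the fit of 4 arrays and the one without the second array of 72 h (0.89). Of 43 alternatives, Sirt1 lost its call in 32, Ezh1 in 24, Cbx1 in 8 and Smarca5 in 6.

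**Figure D4:**
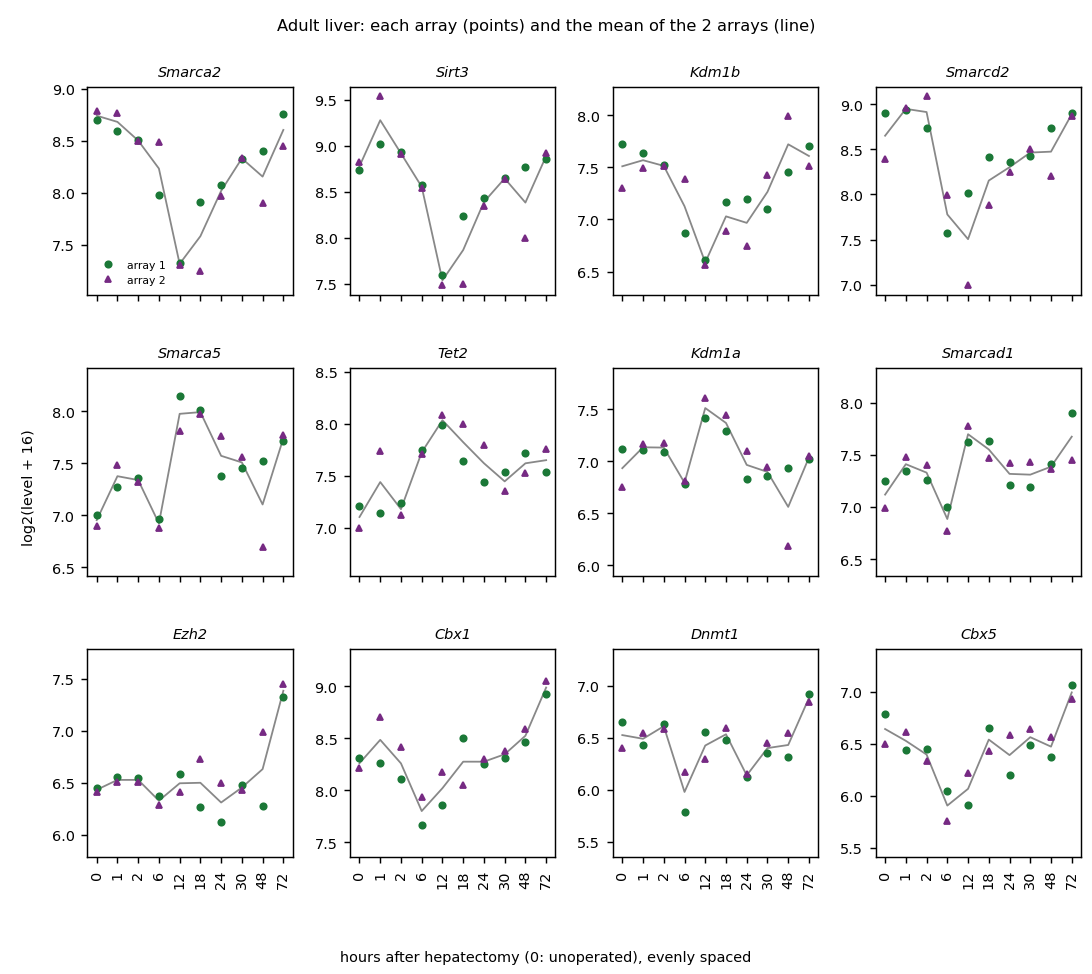
Level of 12 members on each adult array (circles array 1, triangles array 2; line, mean of both) as log2(level + 16) against hours after hepatectomy, evenly spaced; the vertical scale differs between panels and spans at least 2 units. Smarca2 and Sirt3 are lowest at 12 h (144.8 and 142, 177 and 163), Smarca5 and Tet2 highest at 12 or 18 h, and Ezh2 and Cbx1 highest at 72 h.

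Members called both at 12 and 18 h and in the embryo are set side by side here, with no test of likeness because the comparisons share time 0. Smarca2, Sirt3, Kdm1b and Kdm5b were lowered at 12 and 18 h (-1.29, -1.07, -0.70 and -0.63) and in the embryo (-1.86, -1.67, -1.18 and -2.25). Smarca5, Kdm1a and Smarcad1 were raised in both (1.03, 0.51 and 0.51, then 2.83, 2.13 and 1.37). Tet2 was raised at 12 and 18 h alone (0.82), and Smarcal1, Smarcd2 and Cbx2 were lowered then and raised in the embryo (0.49, 0.48 and 0.73). The fall of Cbx2 at 12 and 18 h lost its call in 33 of 43 alternatives. On the other probe set of Cbx2 the change was -0.18 in those hours and -0.23 in the embryo. The embryonic call of Smarcd2 was lost in 14 of 44 alternatives, with 0.04 for the mean of probe sets and 0.23 without the second array of time 0, and that of Smarcal1 was lost with the mean of probe sets (0.14). Against 72 h, which does not use time 0, the embryonic changes of Smarca2, Sirt3, Kdm1b and Kdm5b were -1.72, -1.78, -1.28 and -2.61, and those of Smarca5, Kdm1a and Smarcad1 were 2.05, 2.03 and 0.81. There Smarcal1 (0.63) and Cbx2 (0.89) were raised, and Smarcd2 (0.24) was not called.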

How the data were processed

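The authors deposited an intensity per probe set on a linear scale, from biotinylated cRNA of 6 microg total RNA per the labels' protocols. The scanner software and any normalization between arrays: not given in the sources used here. Medians of the arrays were 69.7 to 79.5, and 2.54% to 4.02% of values were below 0 and were set to 0 before log2(level + 16). Of 45101 probe sets, 34958 are listed with 1 gene, and the one of highest mean was used per gene. Limma 3.58.1 (R 4.3.3) fitted a mean per group to all 32 arrays with eBayes(trend = TRUE), 16 residual degrees of freedom, checked on simulated data. Precision is limited by 2 arrays a group; those of 48 h differed most (SD of the difference 0.748, against 0.287 to 0.535 elsewhere). Members and lists were chosen with earlier results of these data known. Named members are those called in a comparison whose brighter group had a mean over 74.6 (the median intensity), fixed members of each family, and up to 4 other chromatin genes per list. Of the 78 members 6 (Cbx3, Hdac8, Hdac9, Kdm4d, Kdm8 and Smarcd1) stayed below 74.6 in every group. Alternatives were other constants, filters, probe set rules, normalization, weights, a replicate block and left-out arrays.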

Additional observations from a re-analysis of the deposited data

How the results depend on the processing

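Counts of called members moved under these settings. At 1 to 6 h 1 was called with the mean of probe sets (0 otherwise). At 12 and 18 h 6 were called with array weights and 0 in a fit of only the arrays compared, against 11. At 24 and 30 h 1 was called with array weights and 1 without 48 h and the first array of 10.5 days. At 72 h 3 were called with a constant of 4, with the mean of probe sets, without ambiguous probe sets and with the replicate block, and 0 in a fit of only the arrays compared. The F test over the adult times called 13 in a fit of only the adult arrays, against 25. Leaving out 1 array gave 0 to 0 at 1 to 6 h, 5 to 12 at 12 and 18 h, 0 to 1 at 24 and 30 h, 0 to 6 at 72 h, 50 to 60 in the embryo against time 0, 46 to 52 against 72 h, 22 to 29 in the trend, and 20 to 37 and 16 to 25 in the F tests over adult times and stages. With the mean of probe sets the embryonic change of Smarcd1 turned to 0.81 and that of Smarcb1 against 72 h to -0.52, both by averaging probe sets of opposite sign; the cause of the other moves was not tested. Of 151 called changes of single members 92 were called in every alternative. Same replicate numbers did not pair samples (correlations of -0.357 to 0.555, 17 of 120 pairs of groups over 0.1); the replicate block called 10 members at 12 and 18 h, 56 in the embryo against time 0, 51 against 72 h and 27 in the trend.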
